A study of Mus musculus with 7 samples.

Results

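The genes described here supply lens cells with cysteine or make, regenerate or break down glutathione: Slc1a1, Slc1a4, Slc1a5, Slc7a11, Slc3a2, Gclc, Gclm, Gss, Gsr and Ggt1. They were taken as all probe sets of the array that the platform annotation pairs with 1 of these 10 symbols and no other. That gave 19 probe sets of 9 genes, out of 45037 probe sets in all. No probe set carried Ggt1 as its only symbol, so Ggt1 was not measured here. The group was chosen with results of these data known: Slc1a1 was selected on its lower values in knock-out lenses, so its difference between the groups is a description and was not tested.

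Glutathione is a tripeptide of glutamate, cysteine and glycine, and the lens, which cannot replace the proteins of its core, holds unusually high concentrations of it. Cysteine is generally the limiting building block. It enters cells as cysteine through transporters of the Slc1 family or as oxidised cystine through the antiporter of Slc7a11 and Slc3a2. Glutamate-cysteine ligase (Gclc with Gclm) and glutathione synthetase (Gss) then assemble the tripeptide, glutathione reductase (Gsr) regenerates it from its oxidised form, and Ggt1 cleaves it outside cells.

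RNA came from lens epithelium cut by laser capture out of stained cryosections of 28-day-old mice on a C57Bl/6 background, kept under normal housing. The animals of both groups were littermates. The knock-out group (KO, SPARC-null, lacking the matricellular protein SPARC) comprised 4 lenses of 3 animals: 1L and 1R, both eyes of animal 1, and the left lenses 4L and 7L. The wild-type group (WT) comprised 3 left lenses of 3 animals, 2L, 5L and 6L. KO animal 7 was male and the others female. Each lens had its own array, and the comparison asks which transcripts differ when SPARC is missing. Values are deposited signals, in arbitrary units, and log2(signal + 16) after quantile normalization between arrays. The animal was the replicate, so 1L and 1R were averaged and n = 3 animals in each group. The number of arrays limits the precision. In these samples, fewer cells of a type and less RNA per cell cannot be told apart.

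The brightest Sparc probe set gave 8.14 to 70.5 in the lenses labelled KO and 27371 to 49972 in those labelled WT. All arrays had a trimmed mean signal near 500.003. Lens 2L stood apart by the ratio of the 3′ to the 5′ Gapdh signal, at 3.75 against 9.06 to 15.9 elsewhere. The same ratio for actin was 5.89 in 2L against 13.8 to 23.8. Lens 2L thus had the least excess of 3′ signal, and all other lenses, KO and WT, had more. For the probe sets of these genes the value without 2L is given where the sign changed or the size moved by over 1.5 times. For genes around them it is given where the sign changed. Of 7 lens epithelium markers, Pax6, Cdh1, Sox2, Gja1, Cryaa and Cryab were at 1608 or more in every lens, while Foxe3 lay between 11.5 and 118. Their means were lower in KO for 3 and higher for 4. Foxe3 was lowest, with a log2 difference between KO and WT of -1.02 (SE 0.46). The highest of 27 bacterial control probe sets, which have no target in mouse RNA, reached 45.5 and is used here as the background level. Of the 19 probe sets, 15 lay above it in all 7 lenses, 16 in at least 3 lenses, and 1 in none.

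Slc1a1 (also called EAAC1 or EAAT3) carries glutamate, aspartate and cysteine into cells. Its 3 probe sets did not show the same pattern. At the probe set 1425415_a_at the KO lenses gave signals of 109.6 (1L), 118 (1R), 63.4 (4L) and 44.7 (7L), and the WT lenses 210.1 (2L), 224 (5L) and 154 (6L). Every KO lens lay below every WT lens there, and 7L lay under the background level. Both lenses of animal 1 were close to each other, and 7L, the male animal, was lowest. On the log2 scale the level averaged 6.38 ± 0.52 for KO and 7.75 ± 0.26 for WT (SD, n = 3 animals). The log2 difference of -1.37 (SE 0.38) is a 2.58-fold lower value in KO on the log2(signal + 16) scale. It ran from -1.65 to -0.99 over 16 settings of the processing, and was -1.13 without KO animal 7.

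At the brightest Slc1a1 probe set, 1448299_at, the signals were 391 (1L), 143 (1R), 228 (4L) and 156 (7L) in KO and 191 (2L), 265 (5L) and 241 (6L) in WT lenses. The groups overlapped, and both the highest and the lowest value of all 7 lenses came from the eyes of KO animal 1. The log2 difference was -0.22 (SE 0.31), and it was 0.01 with 1L alone and -0.46 with 1R alone for that animal, and -0.38 without WT animal 2. The remaining probe set, 1460386_a_at, lay under the background level in all 7 lenses (4.07 to 24.2), so no difference can be read from it. The groups of lenses were thus apart at 1 of the 3 Slc1a1 probe sets. Which part of the transcript each probe set detects was not analysed here.

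**Figure D1:**
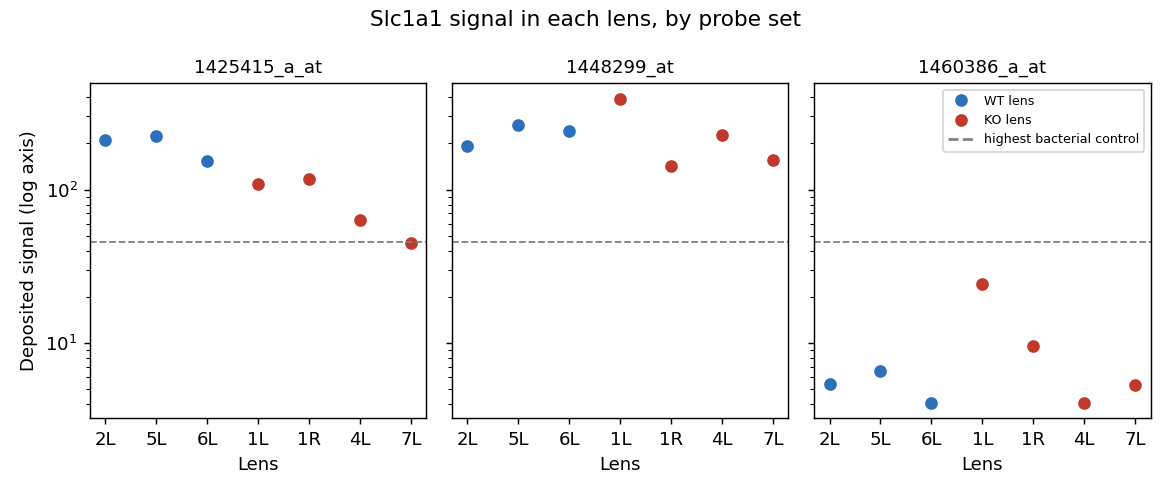
Deposited Slc1a1 signal (log axis) in the 3 WT lenses (blue) and 4 KO lenses (red), in a panel for each of its 3 probe sets; the dashed line is the highest bacterial control, 45.5. At 1425415_a_at every red point lies under every blue one, at 1448299_at the KO lenses 1L and 1R bracket all others, and at 1460386_a_at all lenses lie under the line.

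Markers of neighbouring tissue also differed between the lenses. All 4 markers of the ocular surface epithelium (Krt5, Krt12, Krt14 and Upk1b) had lower means in KO, and their signals summed to 953 to 12872 across KO lenses, against 6060 to 15084 across WT lenses. Lens 7L, lowest for Slc1a1 at 1425415_a_at, was also lowest for this sum, but the other lenses did not keep the same order. Lens 5L, highest for Slc1a1 there, had the lowest WT sum (6060). Among KO lenses, 1R was highest both for the sum (12872) and for Slc1a1 there (118). All 6 Müller glia markers had higher means in KO, and summed to 13319 to 17877 across KO lenses, against 8141 to 9790 across WT lenses. None of these markers was at 0 in any lens, though Krt14 lay under background in 1L, 4L, 7L and 6L, and their part in the Slc1a1 values was not tested. The Slc1a1 difference at that probe set was -1.65 without KO animal 1 and -1.33 without WT animal 2.

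Among named probe sets above the median level (19411), those that followed the brightest Slc1a1 probe set most closely over the 7 lenses were of Pdap1 (Pearson r = 0.994), Scamp2 (0.992), Dusp22 (0.988), Gm5617 (0.986) and Timm10b (0.983). With 7 lenses and so many candidates this is only a description.

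Slc1a4 and Slc1a5 are sodium-dependent exchangers of neutral amino acids, for which Slc1a4 prefers alanine, serine and cysteine and Slc1a5 glutamine. At its brightest probe set Slc1a4 was at 1129 (1L), 1374 (1R), 1736 (4L) and 1344 (7L) in KO and at 845 (2L), 1354 (5L) and 1460 (6L) in WT lenses. The groups overlapped, with 2L lowest and 4L highest. KO and WT means differed by 0.28 (SE 0.28, 95% interval -0.34 to 0.90), and without WT animal 2 it was -0.0031. The other Slc1a4 probe sets differed by -0.15 and -0.12 (0.27 and -0.21 without WT animal 2), so the gene had no single direction.

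For Slc1a5 the signals were 261 (1L), 271 (1R), 235 (4L) and 209 (7L) in KO and 333 (2L), 276 (5L) and 258 (6L) in WT lenses. The groups overlapped as deposited, since 6L lay below 1L and 1R, but not after quantile normalization, where levels averaged 7.96 ± 0.15 for KO and 8.27 ± 0.10 for WT (SD, n = 3 animals). The log2 difference was -0.31 (SE 0.26, 95% interval -0.90 to 0.28). The other Slc1a5 probe set was above background in 1 lens only (6L).

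Slc7a11 (xCT) brings cystine in against glutamate, and Slc3a2 (4F2hc) is the heavy chain that carries it to the membrane. Slc7a11 is a textbook target of the transcription factors Nrf2 and ATF4. At its brightest probe set the signals were 552 (1L), 355 (1R), 674 (4L) and 563 (7L) in KO and 330.2 (2L), 519 (5L) and 668 (6L) in WT lenses. Both groups covered nearly the same range. KO and WT means differed by 0.16 (SE 0.32, 95% interval -0.56 to 0.88), and -0.15 without WT animal 2. At the other probe set, 1420413_at, lens 4L stood alone at 460.0, where the other KO lenses lay at 237 to 253 and the WT lenses at 189.7 to 295. That probe set differed by 0.23, by -0.08 without KO animal 4 and by 0.02 without WT animal 2.

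Slc3a2 had signals of 15577 (1L), 12496 (1R), 15262 (4L) and 13777 (7L) in KO and 12414 (2L), 17606 (5L) and 16572 (6L) in WT lenses. The groups overlapped, and its level lay at percentile 99.2 of all probe sets, near the top of the array. Lens 2L was lowest of all as deposited. After quantile normalization, on which the difference rests, it was highest (13.983, against 13.635 to 13.977 in the other lenses). The log2 difference was -0.15 (SE 0.17, 95% interval -0.53 to 0.23).

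The sequence just before the start of some of these genes holds letters that ATF4 or Nrf2 are known to bind. RefSeq promoters (assembly GRCm38.p6, 250 bases before to 50 after a start) were found for 7 of the 10 genes. They were searched on both strands for the amino acid response element core TGATGNAA, bound by ATF4, and the antioxidant response element core TGACNNNGC, bound by Nrf2. The stretches around the matches in measured genes are shown, 5′ to 3′ on the gene's strand, with matched letters in capitals:
Slc7a11: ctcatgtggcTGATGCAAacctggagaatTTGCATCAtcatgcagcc
Slc1a4: gcctcctgcgTTGCATCAtctccagcct
Gclm: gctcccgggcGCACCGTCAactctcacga

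The Slc7a11 stretch lies at chr3:50443643-50443689 on the minus strand and holds the first core on both strands in turn, beginning 66 and 47 bases before the start. The Slc1a4 stretch lies at chr11:20332700-20332727 on the minus strand and runs across the start. The Gclm stretch lies at chr3:122245413-122245441 on the plus strand, and its match begins 134 bases before the start. The ATF4 core was found in 2 of the 10 promoters of these 7 genes, against 3.97% of all 32851 promoters. The Nrf2 core was found in 4 of 10, of which 3 were alternative promoters of Ggt1, against 12.4% of all. These cores do not overlap each other. The Slc1a1, Slc3a2 and Gss windows held neither. A match of letters is a description and not a site of binding.

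Gclc is the catalytic and Gclm the modifier subunit of glutamate-cysteine ligase, the rate-limiting enzyme of glutathione synthesis. At its brightest probe set Gclc was at 3533 (1L), 4886 (1R), 3734 (4L) and 4634 (7L) in KO and at 4625 (2L), 4420 (5L) and 6063 (6L) in WT lenses. The groups overlapped: 1L and 4L lay below, 1R and 7L among the WT lenses. KO and WT means differed by -0.25 (SE 0.20, 95% interval -0.69 to 0.19). The other Gclc probe set differed by -0.19, and by 0.02 without WT animal 2.

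Gclm was at 2207 (1L), 2180 (1R), 2160 (4L) and 2482 (7L) in KO and at 2890 (2L), 2811 (5L) and 2499 (6L) in WT lenses. The highest KO lens, 7L, lay just under the lowest WT lens, 6L, so the groups did not overlap. Levels averaged 11.17 ± 0.08 for KO and 11.41 ± 0.11 for WT (SD, n = 3 animals). The log2 difference was -0.24 (SE 0.18, 95% interval -0.64 to 0.16; limma adjusted p = 0.99988). The other Gclm probe set overlapped between groups and differed by -0.15, with the eyes of KO animal 1 at 233 (1L) and 578 (1R). It differed by 0.06 without WT animal 2.

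Gss adds glycine to complete glutathione. At its brightest probe set it was at 3355 (1L), 3223 (1R), 3875 (4L) and 4146 (7L) in KO and at 5644 (2L), 4122 (5L) and 5379 (6L) in WT lenses. Of the KO lenses, 3 lay below every WT lens, and 7L lay just above 5L. KO and WT means differed by -0.42 (SE 0.21, 95% interval -0.89 to 0.06; limma unadjusted p = 0.0807, adjusted p = 0.99988). It was -0.27 without WT animal 2 and -0.58 without WT animal 5. The other Gss probe set differed by -0.06 (SE 0.20).

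Gsr turns oxidised glutathione back with electrons from NADPH. At its brightest probe set it was at 84.6 (1L), 97.7 (1R), 133 (4L) and 136 (7L) in KO and at 159.6 (2L), 129.6 (5L) and 122 (6L) in WT lenses. Both lenses of KO animal 1 lay below all WT lenses, and 4L and 7L among them. The log2 difference was -0.26 (SE 0.34, 95% interval -1.01 to 0.49). The other Gsr probe set was above background in 1 lens only (4L).

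**Figure D2:**
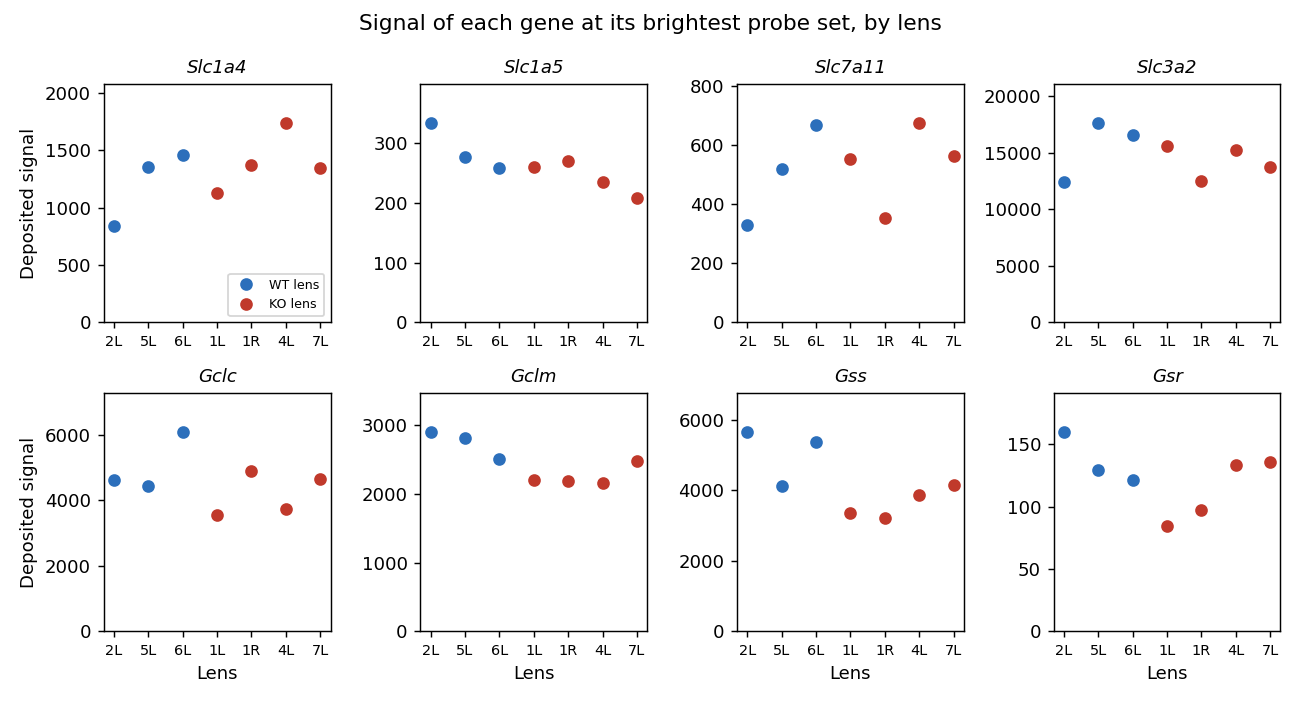
Deposited signal (linear axes from 0) at the brightest probe set of the 8 measured genes other than Slc1a1, for WT lenses (blue) and KO lenses (red). The groups overlap in every panel except Gclm, where KO lenses reach 2482 and WT lenses begin at 2499.

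None of the 16 probe sets of the 8 other genes passed the test between KO and WT. That is 0 of 16 at an adjusted p of 0.05 in limma, adjusted over all probe sets (0.99988 for each), against 0.00666% of all probe sets. At an unadjusted p of 0.05 there were 0 of 16 as well, against 1.81% of all probe sets lower and 2.24% higher in KO. Among the 19 probe sets, the groups were separated at 3, always with the KO lenses lower (Slc1a1, Slc1a5 and Gclm), against 2.76% of all probe sets lower and 2.56% higher. As deposited this held at 2 (Slc1a1 and Gclm), against 1.97% lower. Slc1a1 was chosen for this, and only Slc1a5 and Gclm are left when it is set aside.

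Slc1a1, chosen for its lower values, is left out of the counts that follow. Of the 16 probe sets of the 8 other genes, 12 had a lower and 4 a higher mean in KO, where 51.6% of all probe sets were lower. Their median log2 difference was -0.15, and -0.01 over all probe sets. At the brightest probe set of each gene 6 of 8 were lower, where 54.4% of all genes were, and the exceptions were Slc1a4 and Slc7a11. Without WT lens 2L 8 of 8 were lower, Slc1a4 by as little as -0.0031, where 55.7% of all genes were. Several probe sets above background in at least 3 lenses were found for Slc1a4, Slc7a11, Gclc, Gclm and Gss. These lay on 1 side for Gclc, Gclm and Gss (lower) and for Slc7a11 (higher), but not for Slc1a4. Without WT lens 2L they did so for Gss only. The same share over all genes was not computed. No p is given for these counts, since the genes were chosen with results known.

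The 2 eyes of KO animal 1 show how far lenses of the same genotype and animal can lie apart. The median gap between 1L and 1R over the 16 probe sets of genes other than Slc1a1 was 0.25 on the log2 scale, and the median size of the difference between KO and WT was 0.24. At 9 of 16 probe sets (56.2%) the gap between the eyes was larger than that between the groups, against 68.5% of all probe sets. The gap is between 2 single lenses and the group difference between means of 3 animals, so their precision is unlike. It was widest for Slc1a1 at 1448299_at (1.40) and for the weaker Gclm probe set (-1.30, 1R being higher), and narrow for the brightest Gclm (0.04), Gss (0.05) and Slc1a5 (-0.05) probe sets. After quantile normalization, lens 2L was highest of all lenses at 8 of 19 probe sets and lowest at 4. These counts differ from those on deposited signals.

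**Figure D3:**
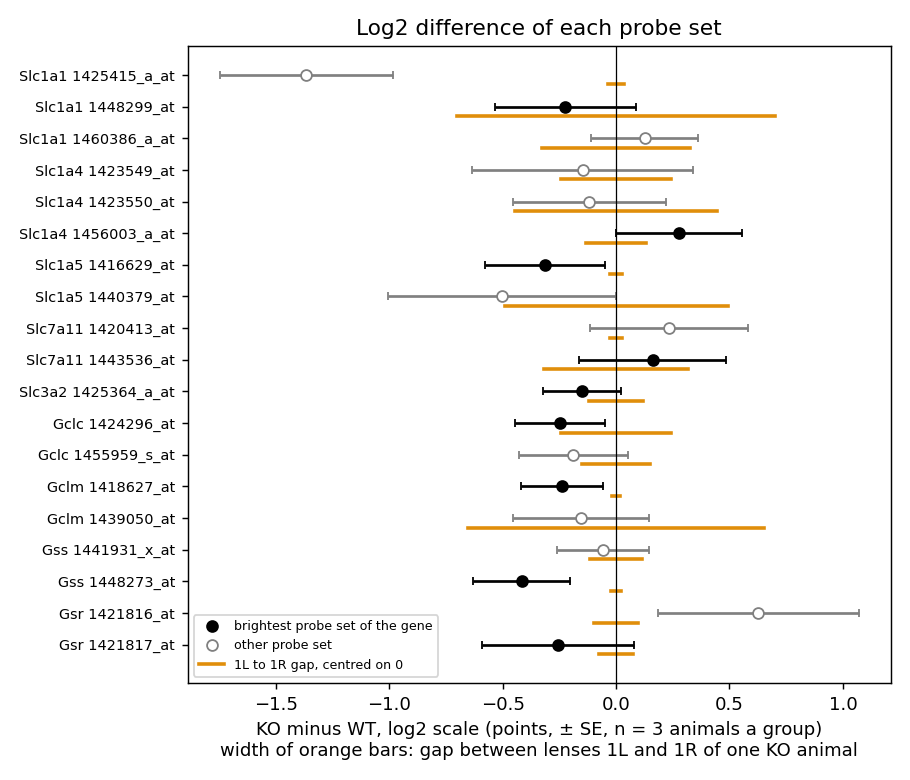
Log2 difference, KO minus WT, for all 19 probe sets, with SE (n = 3 animals a group); filled points mark the brightest probe set of a gene, and the orange bars are as wide as the gap between the eyes of KO animal 1. Apart from Slc1a1 at 1425415_a_at (-1.37), the values lie between -0.50 and 0.63, both ends being probe sets above background in 1 lens only. At the 15 probe sets above background in all lenses they lie between -0.42 and 0.28. Many bars are wider than the difference, but a bar compares single lenses and a point compares means of 3 animals.

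The wider pathway was read from 11 lists of 100 other genes, of which 94 were measured, each at its brightest probe set. None of the 94 passed at an adjusted p of 0.05 in limma (0.99988 for each), against 0.0055% of all genes. At an unadjusted p of 0.05, 3 were lower in KO (Cdo1, Slc25a11 and Anpep, the last under background in every lens), where 1.83% of all genes were. Another 3 were higher (Slc1a3, Slc1a6 and Glul), where 2.24% of all genes were. Means were lower for 49 and higher for 45, close to the 54.4% of all genes that were lower, with a median log2 difference of -0.01 against -0.03 over all genes. The counts of each list below stand beside that same 54.4%, and no list is called. With 1 animal left out at a time, the median took the other sign at least once in 8 of the 10 lists with several genes, and kept it in 2, the methionine cycle with transsulfuration and cysteine breakdown.

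Genes of the methionine cycle and transsulfuration had lower means in 8 of 11 (median -0.17). Mtrr, which reactivates methionine synthase, differed by -0.34 (SE 0.25), and Ahcyl2 and Ahcyl1, relatives of the enzyme that releases homocysteine, by -0.25 (SE 0.20) and -0.19 (SE 0.20). Cbs and Cth, the 2 enzymes that turn homocysteine into cysteine, differed by -0.22 (SE 0.36) and -0.12 (SE 0.41), and Cth by 0.04 without WT animal 2. Genes that break glutathione down had lower means in 8 of 12 (median -0.08, and -0.26 without WT animal 2). Anpep and Ggt6, with the smallest p, lay under background in every lens. Cndp2, a dipeptidase that splits cysteinylglycine, was higher by 0.25 (SE 0.23).

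Genes that break cysteine down had lower means in 6 of 9 (median -0.21). Cdo1, the dioxygenase that commits cysteine to taurine and sulfate, gave 139.8 (1L), 98.8 (1R), 70.2 (4L) and 32.1 (7L) in KO and 173 (2L), 152 (5L) and 146 (6L) in WT lenses. The highest KO lens lay under the lowest WT lens, 7L was under background, and the log2 difference was -1.15 (SE 0.42, limma unadjusted p = 0.0206, adjusted p = 0.99988). Sqor, a sulfide oxidase, also did not overlap and differed by -0.40 (SE 0.22). In the other direction, Tst, a sulfurtransferase, differed by 0.58 (SE 0.34). Of its KO lenses, 3 lay above all WT lenses, and 1R lay below them all.

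Other cysteine and glutamate transporters had higher means in 7 of 12 (median 0.04, or -0.06 with median centring). Slc1a3, the glial glutamate transporter, gave 586 (1L), 679 (1R), 656 (4L) and 200.2 (7L) in KO and 254 (2L), 157 (5L) and 152 (6L) in WT lenses. Its lens 7L lay within the WT range, and the log2 difference was 1.16 (SE 0.45, limma unadjusted p = 0.0270, adjusted p = 0.99988). Slc1a6, a neuronal glutamate transporter, differed by 0.84, with all WT lenses and 7L under background. Slc3a1, the heavy chain of the renal cystine transporter, differed by -0.63 (SE 0.42) at signals of 24.8 to 88.9. Of the 4 light chains listed here as other partners of Slc3a2, not a full set, 2 were higher and 2 lower (median 0.12). Slc7a7 differed by 0.56 (SE 0.50) near background, Slc7a5 by 0.26 (SE 0.45) and Slc7a8 by -0.07 (SE 0.19).

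Carriers of glutathione had higher means in 6 of 9 (median 0.13, and -0.08 without WT animal 2). Of the 6, Abcc2 and Cftr lay under background in every lens. Over the carriers above background in at least 3 lenses the median was 0.03. Slc25a11, a mitochondrial oxoglutarate carrier, was lower in all KO (791 to 1085) than in all WT lenses (1247 to 1653), with a log2 difference of -0.45 (SE 0.20, limma unadjusted p = 0.0484, adjusted p = 0.99988). Abcc4, an exporter, differed by 0.21 (SE 0.21).

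Genes that supply glutamate and glycine had lower means in 4 of 7 (median -0.04). Whichever animal was left out, that median was positive, from 0.02 to 0.15. Glul, which makes glutamine from glutamate, differed by 0.69 (SE 0.29, limma unadjusted p = 0.0375, adjusted p = 0.99988). Slc1a3 and Glul are also 2 of the 6 Müller glia markers, all of which had higher means in KO. Their part in these values was not tested. Psat1 and Psph, enzymes of serine synthesis, differed by 0.24 (SE 0.18) and -0.24 (SE 0.22). NADPH-supplying genes had lower means in 5 of 8 (median -0.10). Nnt, the mitochondrial transhydrogenase, differed by 0.28 (SE 0.20), Taldo1, a pentose phosphate enzyme whose lenses did not overlap, by -0.24 (SE 0.18), and Me1, a malic enzyme, by -0.29 (SE 0.26).

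None of the regulators of the pathway passed the test. The list of Nrf2, its partners and its targets had higher means in 8 of 12 (median 0.03, or -0.04 with median centring). Bach1, which competes with Nrf2 for its sites, differed by 0.37 (SE 0.25), and the targets Osgin1 and Srxn1 by -0.74 (SE 0.69) and 0.23 (SE 0.35). For Osgin1, lens 7L lay under background at 20.2, against 151 to 295 in the other lenses. The Osgin1 difference ran from -1.39 to 0.19 with 1 animal left out. Nfe2l2, which encodes Nrf2, differed by -0.05 (SE 0.29), or 0.06 without WT animal 2, and Keap1, its inhibitor, by 0.10 (SE 0.23). The ATF4 list had higher means in 6 of 9 (median 0.12, and -0.00041 without KO animal 4). Sesn2 differed by 0.52 (SE 0.56), Ddit4 by 0.28 (SE 0.37) and Eif2ak3, a kinase upstream of ATF4, by -0.21 (SE 0.31), while Atf4 itself differed by 0.10 (SE 0.21). Of the 2 proteins listed for their known action on Slc1a1 trafficking, Rtn2 differed by -0.19 (SE 0.60), or 0.40 without WT animal 2, and Arl6ip5 was not measured at a probe set of its own.

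**Figure D4:**
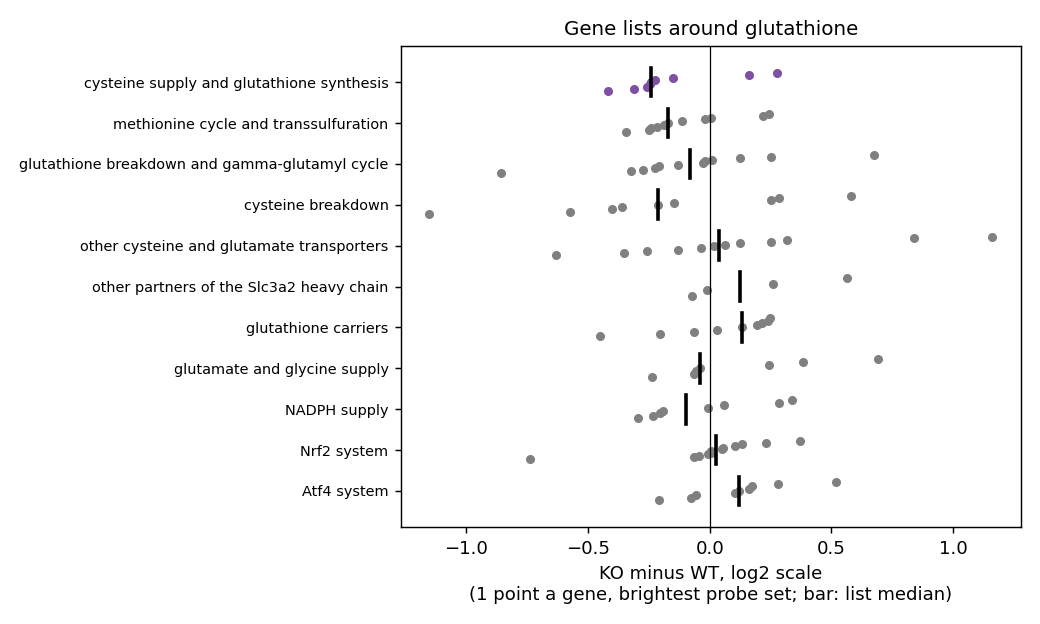
Log2 difference, KO minus WT, of each gene at its brightest probe set, for the 9 measured genes of cysteine supply and glutathione synthesis (purple) and 10 lists around them (grey); bars are list medians. The purple genes centre on -0.24, the Nrf2 list on 0.03 and the ATF4 list on 0.12; Slc1a3 (1.16) and Cdo1 (-1.15) lie farthest out.

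Markers of other tissues were found in every lens, but not each of them. Photoreceptor markers summed to 36418 to 55480 across KO and 32040 to 58783 across WT lenses, with 3 of 4 means lower in KO. Lens fibre markers summed to 112293 to 149768 and 105529 to 152342, with 6 of 7 lower. Among the fibre markers Dnase2b differed most, by -0.83 (SE 0.17, limma adjusted p = 0.918), with 1R above all WT lenses and the other KO lenses below them. Pigment cell markers summed to 13272 to 39917 and 7047 to 22220, 4 of 5 higher in KO. Macrophage markers summed to 1235 to 2062 across KO and 537 to 1132 across WT lenses, 5 of 6 higher, and endothelial and blood markers to 590.2 to 761 and 260.3 to 592, 5 of 5 higher. Aif1 and Pecam1 lay under background in all lenses. Of the markers of blood, Alas2 lay under it in 1L and all WT lenses, and Slc4a1 in 1L, 4L and all WT lenses. Of the macrophage markers, Cd68 lay under it in 1L, 1R, 5L and 6L, and Ptprc in 7L, 2L and 6L. C1qa lay under it in 5L and 6L, C1qb in 6L, and Cdh5, of endothelium, in 5L. The part of these tissues in the values above was not tested.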

How the data were processed

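The authors deposited 1 linear intensity per probe set and lens, from Affymetrix mouse arrays hybridised after 2-cycle amplification and biotin labelling, per the labels' protocols. How signals were summarised and background-corrected is not stated in the sources used here. Of 45101 probe sets, 64 controls were left out and 45037 kept, with no filter on low values. Signals were turned into log2(signal + 16), so differences of weak probe sets are understated, and quantile normalized. Lenses 1L and 1R were averaged. The groups were compared in R 4.3.3 with two-sided tests of limma 3.58.1 (lmFit, then eBayes with its trend option), adjusted by Benjamini-Hochberg over all probe sets. The code was tested on simulated data.

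Gene names came from the platform annotation (34945 probe sets with 1 symbol, 932 with several, 9160 with none), and 34741 were matched by gene number to GRCm38.p6. The brightest probe set of a gene has the highest mean level. All probe sets of the 10 genes are accounted for, and up to 3 genes of each pathway list with the smallest p could be named, besides regulators and enzymes that were chosen after their values were seen. The genes and lists were chosen with earlier results of these data known. The animals are separate mice, and their numbers do not pair KO with WT. The alternatives were 7 independent lenses, 1L or 1R alone, median centring, no normalization, pseudocounts of 1 and 64, a filter (above background in at least 3 lenses), no trend, and leaving out each animal. The range for Slc1a1 at 1425415_a_at and the median without Slc1a1 were added after seeing the data.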

Additional observations from a re-analysis of the deposited data

Results flagged for a closer look

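Among the 4 KO lenses, lens 4L stood far above the others for Slc7a11 at the probe set 1420413_at, at a log2 level of 8.93 against 7.92 to 8.05. The gap to the nearest lens was 0.873 of the whole range. Chance flags about 1 in 20 groups of independent samples in this way, and 19 probe sets were examined. Lenses 1L and 1R are eyes of 1 animal, so the 4 lenses are not independent and that rate holds only roughly. At the other Slc7a11 probe set 4L was also highest of the KO lenses (9.46), but WT lens 6L reached 9.47.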

How the results depend on the processing

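The 19 probe sets were recomputed under 15 alternatives. The counts of probe sets and of pathway genes past an adjusted p of 0.05 in limma stayed at 0 under all of them. Leaving Slc1a1 aside, the lowest adjusted p was 0.911, for Gss. At an unadjusted p of 0.05, 1 of the 16 probe sets other than those of Slc1a1 passed with 7 independent lenses or with median centring, and 2 without WT animal 5. The median log2 difference over the 19, Slc1a1 included, was -0.15. It was -0.23 with the left lens 1L only (-0.234) and with median centring (-0.232), and ran from -0.203 to -0.130 when 1 animal was left out, being -0.203 without KO animal 7. Over the 16 probe sets of genes other than Slc1a1, a median added after seeing the data, it was -0.15 as reported and -0.24 with 1L only (-0.237), and ran from -0.208 to -0.101 with 1 animal left out. The number of the 9 genes, Slc1a1 included, lower at their brightest probe set ran from 6 to 9. Of 282 values of single probe sets, 281 stayed within 1 SD of the replicates and 14, at 10 probe sets, had the other sign. The 9 with 1 sign throughout comprised 8 lower in KO and the weak Gsr probe set. Of 165 list medians, 153 stayed within 1 SD. The median of 8 of the 10 lists with several genes took the other sign with some animal left out: glutathione breakdown ran from -0.26 to 0.04, other transporters from -0.13 to 0.12, Slc3a2 partners from -0.04 to 0.30, carriers from -0.08 to 0.18, glutamate and glycine supply from 0.02 to 0.15, NADPH supply from -0.11 to 0.02, the Nrf2 list from -0.0088 to 0.20 and the ATF4 list from -0.00041 to 0.23. The cause was not tested. The values of weak probe sets depend on the pseudocount: Slc1a1 at 1425415_a_at differed by -1.56 with 1 and -0.99 with 64. No paired analysis was made. The animal numbers do not pair KO with WT, and which animals shared a litter was not used in the comparison.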
